A study of Mus musculus with 17 samples.

Results

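The genes described here are 10 imprinted growth genes: Mest, Peg3, Dlk1, Meg3, H19, Cdkn1c, Plagl1, Grb10, Ndn and Gnas. The group was selected on the measured level of Mest, which was strongly lower when neratinib was added to tumour conditioned medium, so that difference is a description here and not a test. Of the 10, 8 were analysed and all 8 passed the filter on low counts, among 13923 tested genes of 35896 gene identifiers. Meg3 and H19, which make long non-coding RNAs, were not analysed here.

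An imprinted gene is transcribed mainly from the copy inherited from a given parent, because DNA methylation laid down in the egg or sperm marks the copies differently. Many imprinted genes act on fetal growth: paternally expressed genes such as Mest, Peg3, Dlk1 and Plagl1 tend to promote it, and maternally expressed genes such as Cdkn1c and Grb10 tend to restrain it. Several are high in fetal mesenchyme and fall after birth. The counts used here do not separate the parental copies, so they give the level of each gene and not its imprint.

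RNA was sequenced from 17 libraries of wild-type murine pancreatic stellate cells of strain C57BL/6J, the star-shaped mesenchymal cells of the pancreas that become fibroblasts around tumours. Cells of the lines PSC4 and PSC5 were grown in Matrigel and treated for 4 days. The groups were control medium (5 libraries), control medium with TGF-beta at 20 ng/mL (4), medium conditioned by tumour organoids (CM, 4) and CM with neratinib at 300 nM, a kinase inhibitor of the ERBB receptors (4). Replicate numbers 1, 2 and 3 of PSC4 were passages 23, 24 and 25, and numbers 1 and 2 of PSC5 were passages 27 and 28. TGF-beta libraries of PSC4 had numbers 2 and 3, and both CM groups had numbers 1 and 2, with medium code T8 for number 1 and T6 for number 2. Nothing in the labels says that replicates were separate cultures beyond their passage, so p-values measure the spread between these libraries.

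Library totals lay between 22168960 and 29421451 counts. Levels are CPM, the count of a gene scaled by the total of its library and a TMM factor (trimmed mean of M values), and a gene is called changed at a Benjamini-Hochberg adjusted p under 0.05 over all tested genes (edgeR quasi-likelihood test, with the cell line as a term). The 3 libraries labelled PSC4 replicate 1 stood with PSC5 on the first principal component, with group means removed. Their values were -27.4, -18.4 and -35.3, against 30.1 to 49.2 in the other PSC4 libraries and -37.8 to -2.2 in PSC5. On the second component CM with neratinib PSC4 replicate 1 stood apart, at 57.1 beside -28.2 to 11.3 in all other libraries. Summed fibroblast and stellate markers (14 genes) were 4600 to 20700 CPM, while the stellate markers Des and Gfap reached at most 3.71 and 0.317 CPM. Summed epithelial markers (14 genes, none at 0 in all 17 libraries) were 16.9 to 27.9 CPM in control and 15.9 to 21.7 CPM with TGF-beta. They were 22.9 to 188 CPM in CM and 10.0 to 330 CPM in CM with neratinib, with 150 CPM or more in each of the 4 medium T6 libraries and at most 53.7 CPM in each T8 library. Immune markers summed to 2.08 to 13.5 CPM, with Ptprc at 1 count or none in every library. Acinar and endocrine markers summed to at most 0.705 CPM, and endothelial markers to between 2.68 and 32.0 CPM. With library totals alone as the scaling in place of TMM factors, the median log2 fold change of all genes moved to -0.15 with TGF-beta and -0.11 in CM with neratinib. The genes called higher then numbered 1807 of 6283 with TGF-beta in place of 2743 of 5598, 704 of 2101 in CM in place of 982 of 1976, 1970 of 6119 in CM with neratinib in place of 3085 of 5998, and 1056 of 2779 between the CM groups in place of 1509 of 2850. Upper-quartile factors gave 783 of 2090 in CM and 2442 of 5936 in CM with neratinib.

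Promoter sequences are shown for Mest and Dlk1, the members with the lowest fitted log2 fold changes in CM with neratinib. Both are the 250 bases before an annotated start site, on the plus strand of GRCm38.p6 (RefSeq), at chr6:30737800-30738049 for Mest and chr12:109452573-109452822 for Dlk1. Capitals mark matches to TGCCGC on either strand, the core letters bound by ZFP57, a zinc finger protein that keeps methylation at imprinted regions when its site is methylated.
Mest: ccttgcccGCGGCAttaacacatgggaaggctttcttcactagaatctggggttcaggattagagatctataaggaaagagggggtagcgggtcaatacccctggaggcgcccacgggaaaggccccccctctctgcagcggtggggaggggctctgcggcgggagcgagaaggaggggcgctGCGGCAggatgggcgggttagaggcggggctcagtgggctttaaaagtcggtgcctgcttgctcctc
Dlk1: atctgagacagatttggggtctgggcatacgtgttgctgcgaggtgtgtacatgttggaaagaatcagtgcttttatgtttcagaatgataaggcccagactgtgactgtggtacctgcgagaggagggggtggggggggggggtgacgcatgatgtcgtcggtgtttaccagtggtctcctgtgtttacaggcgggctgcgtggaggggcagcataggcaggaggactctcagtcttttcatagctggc
The Mest window shown held 2 matches, both on the minus strand, starting 242 and 67 bases before the start site, and the Dlk1 window held none. Over 300-base windows (250 before and 50 after the start), 11.6% of 32817 promoters held TGCCGC. Of the 8 members with a promoter entry, Mest, Meg3, Plagl1 and Grb10 had a match in at least 1 window. Mest, Meg3, Grb10 and Gnas have more than 1 window each, so this count per gene cannot be set against the share per promoter. The other letters searched on both strands were GGGGCCCC, bound by PLAGL1 and found in 1.1% of promoters, and TGANTCA, the AP-1 site, found in 7.8%. Among the members, GGGGCCCC occurred in the Peg3 window and TGANTCA in none. The 300-base form of the Mest window shown held 17 CpG dinucleotides and that of Dlk1 held 9, beside a median of 7 and quartiles of 3 and 20 over all promoters. Another annotated Mest start, with its window at chr6:30733256-30733555, had 8 CpG and no match to TGCCGC, and the window shown was chosen for its matches. These matches are descriptions of the letters, and neither methylation nor binding was measured.

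Mest also carries a microRNA in an intron, on the same strand, at chr6:30741314-30741336 (RefSeq). It is shown with its seed, bases 2 to 8, in capitals, because Mest is its host gene. MicroRNAs were not measured here.
mmu-miR-335-5p: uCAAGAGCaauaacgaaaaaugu

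Levels between genes can be compared only per length, here as CPM per kb of annotated exon. In control medium the order of the means was Gnas (67.5 CPM per kb), Dlk1 (34.3), Grb10 (26.0), Plagl1 (13.3), Mest (8.91), Ndn (8.25), Cdkn1c (1.09) and Peg3 (0.0378). Neighbours in that order whose control libraries overlapped were Dlk1 with Grb10, Grb10 with Plagl1, Plagl1 with Mest, and Mest with Ndn. In CM with neratinib the order of the mean levels per kb was Gnas (62.7), Grb10 (30.6), Ndn (7.78), Plagl1 (7.06), Dlk1 (3.30), Mest (0.385), Cdkn1c (0.240) and Peg3 (0.0258). The mean of Dlk1 thus stood below those of Grb10, Plagl1 and Ndn there, although its libraries (1.31 to 6.21 CPM per kb) overlapped those of Plagl1 and Ndn, and the Mest libraries (0.183 to 0.499 CPM per kb) overlapped those of Cdkn1c (0.157 to 0.318).

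**Figure D1:**
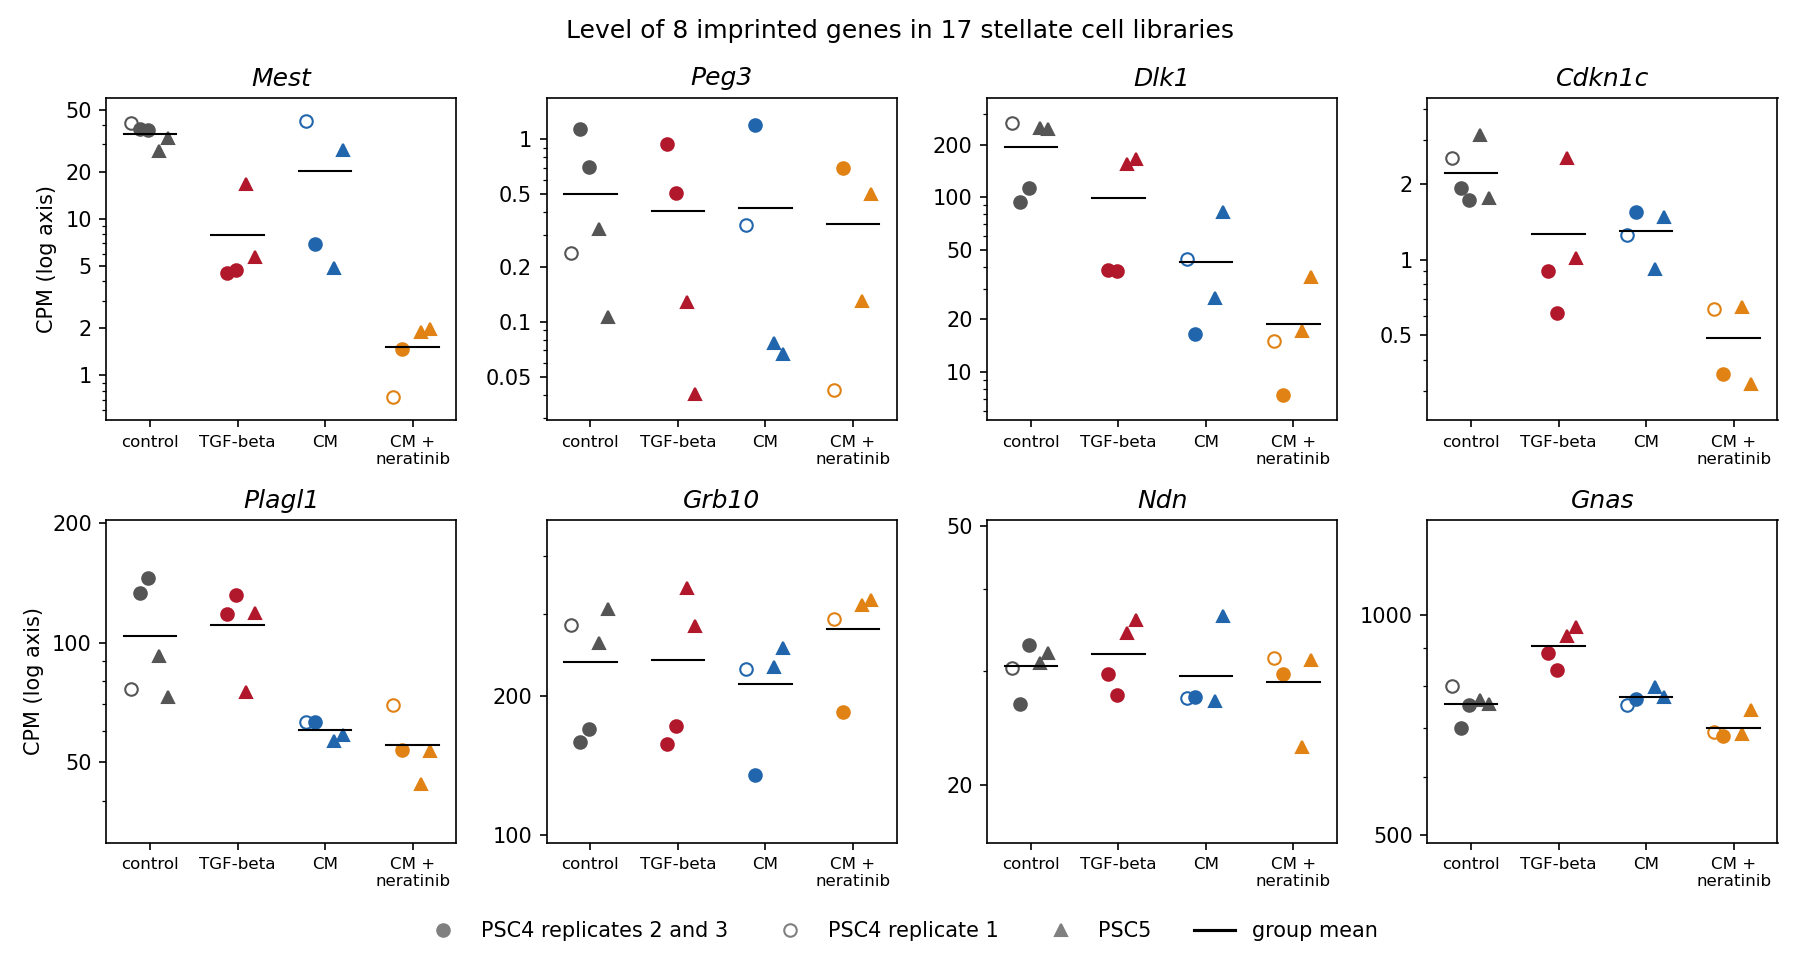
Level of the 8 genes (CPM, log axis) in each of 17 libraries by medium, with circles for PSC4 (open for replicate 1), triangles for PSC5 and a bar at the group mean. The 4 Mest values in CM with neratinib lie between 0.723 and 1.97 CPM, below the lowest value of every other group, while the 4 Mest values in CM spread from 4.89 to 42.5 CPM.

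Mest encodes a hydrolase-like protein of the endoplasmic reticulum that is abundant in fetal mesenchyme and growing fat. In control medium its level was 41.0, 37.5 and 37.0 CPM in PSC4 replicates 1 to 3 and 27.4 and 32.9 CPM in PSC5. With TGF-beta it was 4.51 and 4.73 CPM in PSC4 replicates 2 and 3 and 16.8 and 5.73 CPM in PSC5 replicates 1 and 2. All 4 TGF-beta libraries thus lay below all 5 control libraries, and PSC5 replicate 1 lay well above the other 3. Mest fell by 2.21 on the log2 scale with TGF-beta (SE 0.59, n = 4 against 5, edgeR adjusted p = 0.00792), lower in 4 of 4 libraries. Neither group enters the contrast that chose the genes, but the fit takes its line term and spread from all 17 libraries. Fitted on the control and TGF-beta libraries alone, the value was -2.25 (adjusted p = 0.00164). The change lay between -2.81 and -1.97 over 18 alternative settings and was called in each, with adjusted p between 0.000715 and 0.0351. In bulk samples fewer cells expressing a gene and less RNA per cell cannot be told apart.

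In CM, Mest was 42.5 and 6.91 CPM in PSC4 replicates 1 and 2 and 4.89 and 27.5 CPM in PSC5 replicates 1 and 2. A pair of these libraries was at the control level and a pair was several-fold lower, with a high and a low library in each line, in each medium code and at each replicate number. Their epithelial marker sums were 22.9 and 154 CPM in the libraries with high Mest, and 188 and 46.9 CPM in those with low Mest. A link between these sums and Mest was not tested. In CM with neratinib Mest was 0.723 and 1.48 CPM in PSC4 replicates 1 and 2 and 1.90 and 1.97 CPM in PSC5, from 17 to 44 counts a library. It was lower with neratinib than in CM at the same line and number in 4 of 4 pairs. The fitted log2 fold change was -3.78 (SE 0.68, n = 4 against 4) against CM and -4.57 (SE 0.68, n = 4 against 5) against control, and -0.79 (SE 0.54) for CM against control. These 3 values rest on the groups behind the choice of the genes and are given without a test. Without PSC4 replicate 1 in CM the last was -1.71, and without all 3 libraries labelled PSC4 replicate 1 it was -1.58. Without those 3 libraries the value for neratinib against CM was -2.83, and without the 4 medium T6 libraries, where epithelial markers were high, it was -4.15.

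The 3' end of Mest overlaps that of Copg2, a gene on the opposite strand (Mest at chr6:30723547-30748465 on the plus strand and Copg2 at chr6:30747554-30896794 on the minus strand, GENCODE on GRCm38). The strand setting of the counting is not given in the sources used here, so reads from the shared stretch cannot be told apart. Copg2, a coat protein gene of vesicles, was 33.2 to 39.8 CPM in control, 33.1 to 41.6 CPM with TGF-beta, 27.2 to 33.7 CPM in CM and 33.9 to 46.4 CPM in CM with neratinib. It was not called against control in TGF-beta (0.11 on the log2 scale, adjusted p = 0.383) or in CM with neratinib (0.24, adjusted p = 0.0515). Copg2 was not flat between the CM groups. All its libraries in CM with neratinib lay above those in CM (means of 42 and 31.1 CPM), while Mest was lower with neratinib.

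Dlk1 encodes a transmembrane protein related to Notch ligands that keeps preadipocytes and other progenitors from differentiating. Its level in control medium was 265, 93.6 and 113 CPM in PSC4 replicates 1 to 3 and 249 and 248 CPM in PSC5. In CM it was 44.1 and 16.5 CPM in PSC4 and 26.6 and 82.4 CPM in PSC5, and in CM with neratinib 15 and 7.39 CPM in PSC4 and 17.2 and 35.1 CPM in PSC5. Every library of either CM group lay below every control library. Dlk1 fell by 2.35 in CM (log2, SE 0.45, n = 4 against 5, adjusted p = 0.00417) and by 3.60 in CM with neratinib (SE 0.48, adjusted p = 6.92e-05). Both falls were called in all 19 alternatives, between -2.75 and -1.96 and between -3.81 and -3.23. At the same line and number Dlk1 was lower with neratinib than in CM in 4 of 4 pairs, with a fitted log2 difference of -1.26 (SE 0.46) that is given without a test.

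With TGF-beta Dlk1 was 38.5 and 37.6 CPM in PSC4 replicates 2 and 3 and 155 and 165 CPM in PSC5 replicates 1 and 2. Within each line these values lay below the control values, but over both lines the groups overlapped. Dlk1 fell by 1.34 (log2, SE 0.44, adjusted p = 0.0241). The call was lost without the line as a term (-0.97, adjusted p = 0.206) and without control PSC4 replicate 1 (-0.99, adjusted p = 0.0524), TGF-beta PSC4 replicate 2 (-1.16, adjusted p = 0.0869) or TGF-beta PSC4 replicate 3 (-1.15, adjusted p = 0.0892). The call was kept in the other 14 of 18 alternatives. Among these were the fit without all 3 libraries labelled PSC4 replicate 1 (-1.04, adjusted p = 0.0115) and the replicate block of line and number (-1.07, adjusted p = 0.00256).

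Cdkn1c encodes p57, an inhibitor of cyclin-dependent kinases that restrains cell division. In control medium it was 2.54, 1.93 and 1.73 CPM in PSC4 and 3.16 and 1.77 CPM in PSC5, from 49 to 88 counts a library. In CM with neratinib it was 0.638 and 0.350 CPM in PSC4 and 0.648 and 0.321 CPM in PSC5, from 7 to 15 counts, and these groups did not overlap. Cdkn1c fell by 2.19 in CM with neratinib (log2, SE 0.40, adjusted p = 0.000618), and the call was made in all 19 alternatives (-2.44 to -1.81). In CM it was 0.918 to 1.55 CPM, with all 4 libraries below control, but the log2 difference of -0.78 (SE 0.36) was not called (adjusted p = 0.168). With TGF-beta it was 0.901 and 0.614 CPM in PSC4 and 2.54 and 1.02 CPM in PSC5, which overlapped control. The log2 difference of -0.89 (SE 0.37) had an adjusted p of 0.0682, and 0.0387 with a replicate block of line and number (-0.85). It was also called with library totals alone as the scaling (-1.02, adjusted p = 0.0347) and with DESeq2 (-0.88, adjusted p = 0.0486). Without TGF-beta PSC5 replicate 1, the library in which Mest was also highest of its group, it was -1.39 (adjusted p = 0.00431). These were the only 4 of 18 alternatives with a call. The values ran from -1.39 to -0.65, and in the other 14 alternatives the adjusted p reached 0.219.

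Plagl1 encodes a zinc finger transcription factor that can arrest the cell cycle and that activates other imprinted genes. It was 76.6, 133 and 145 CPM in PSC4 controls and 92.6 and 72.8 CPM in PSC5 controls. In CM it was 63.3 and 63.1 CPM in PSC4 and 56.5 and 58.5 CPM in PSC5, and in CM with neratinib 69.8 and 53.7 CPM in PSC4 and 44.0 and 53.3 CPM in PSC5. All 8 libraries of the CM groups lay below all controls, and the controls of PSC4 replicates 2 and 3 were the highest. Plagl1 fell by 0.73 in CM (log2, SE 0.18, adjusted p = 0.015) and by 0.87 in CM with neratinib (SE 0.18, adjusted p = 0.00142). The second fall was called in all 19 alternatives. The first was lost without CM PSC4 replicate 2 (-0.68, adjusted p = 0.0516) and without the 4 medium T6 libraries (-0.73, adjusted p = 0.098). With TGF-beta Plagl1 was 75.1 to 132 CPM, within the control range, and it was not called (0.14, SE 0.17, adjusted p = 0.558).

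Gnas encodes the stimulatory G protein alpha subunit that couples receptors to adenylyl cyclase, and its counts pool that transcript with others of the same locus. It was 701 to 800 CPM in the 5 controls, with a median of 756 CPM, and 887, 842, 936 and 962 CPM in the 4 TGF-beta libraries. The TGF-beta libraries all lay above the controls. Gnas rose by 0.26 with TGF-beta (log2, SE 0.05, adjusted p = 0.00154), higher in 4 of 4 libraries. With library totals alone as the scaling the value was 0.12 and was not called (adjusted p = 0.0747). In CM Gnas was 754 to 798 CPM and in CM with neratinib 684 to 741 CPM, and neither difference from control was called. The difference for CM (0.03, SE 0.05, adjusted p = 0.782) changed sign under library totals (-0.03) and upper-quartile factors (-0.02). That for CM with neratinib (-0.11, SE 0.05, adjusted p = 0.1) was called under both, at -0.23 (adjusted p = 0.00364) and -0.18 (adjusted p = 0.02), with DESeq2 (adjusted p = 0.0337), and with PSC4 replicate 1 counted with PSC5 (adjusted p = 0.0491).

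Grb10 encodes an adaptor that binds and dampens insulin and IGF receptors. Its group means were 236 ± 68.2 CPM in control (SD, n = 5), 238 ± 88.5 CPM with TGF-beta (n = 4), 212 ± 52.3 CPM in CM (n = 4) and 278 ± 63.7 CPM in CM with neratinib (n = 4). No difference from control was called: -0.08 with TGF-beta (adjusted p = 0.769), -0.21 in CM (adjusted p = 0.53) and 0.19 in CM with neratinib (adjusted p = 0.46). The difference in CM was called with the replicate block (-0.26, adjusted p = 0.0219). The value with TGF-beta was 0.06 with that block and 0.07 without the libraries labelled PSC4 replicate 1.

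Ndn encodes necdin, a MAGE-family protein of neurons and progenitors that slows growth. It was 26.7 to 32.8 CPM in control, 27.5 to 35.9 CPM with TGF-beta, 26.9 to 36.4 CPM in CM and 22.9 to 31.4 CPM in CM with neratinib. No difference was called: 0.05 (95% interval -0.20 to 0.29), -0.06 (-0.31 to 0.18) and -0.09 (-0.33 to 0.15) on the log2 scale against control. The first changed sign to -0.09 with library totals alone as the scaling.

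Peg3 encodes a zinc finger protein studied in maternal behaviour and growth. It had only 1 to 34 counts a library (0.0407 to 1.20 CPM). Its differences from control were -0.35 (SE 0.76) with TGF-beta, -0.34 (SE 0.75) in CM and -0.10 (SE 0.83) in CM with neratinib on the log2 scale, none called (adjusted p = 0.748, 0.803 and 0.934). The 95% interval for TGF-beta was -1.97 to 1.27, so at this depth a sizeable change in either direction remained possible.

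**Figure D2:**
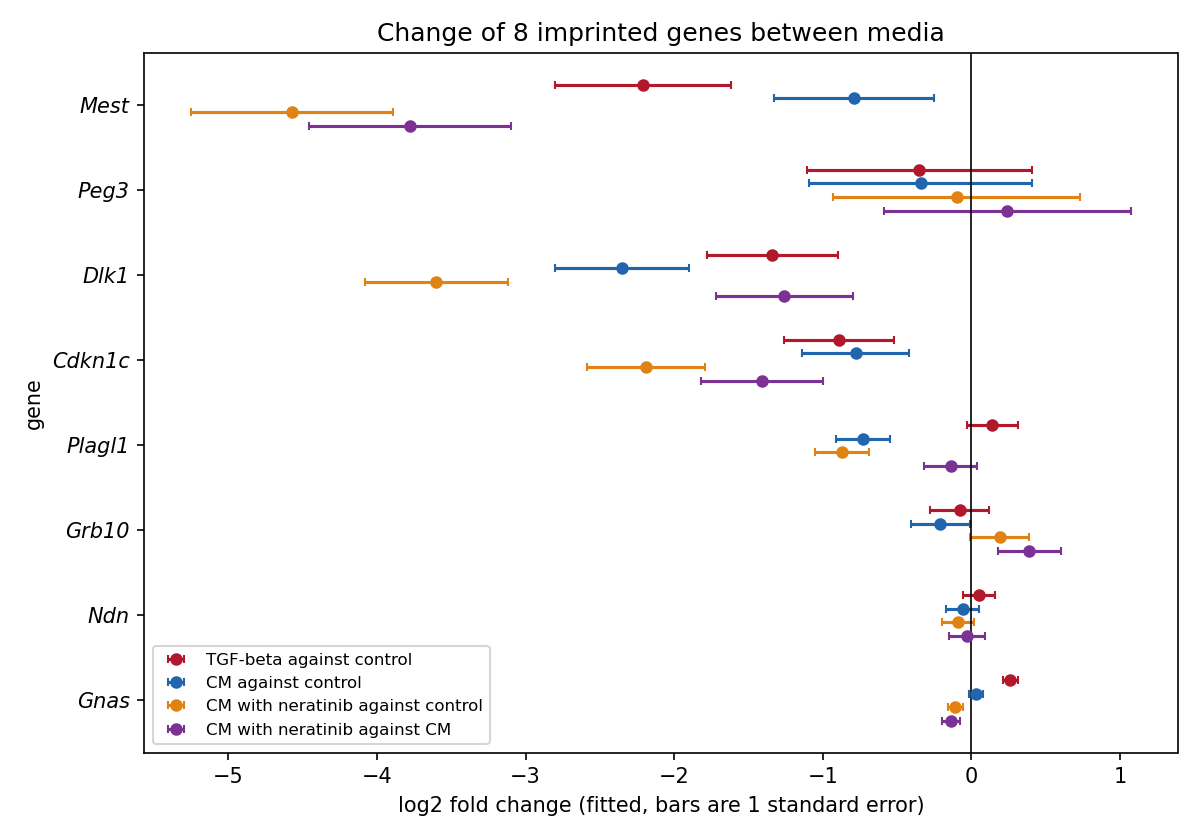
Fitted log2 fold changes of the 8 genes in 4 comparisons between media, with bars of 1 standard error. Mest and Dlk1 lie at or below -1.26 in all comparisons but CM against control for Mest (-0.79), while the Ndn points lie within 0.09 of 0.

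Counted over the members, 2 of 8 fell with TGF-beta (Mest and Dlk1) and 1 rose (Gnas), where 20.5% of all tested genes were called lower and 19.7% higher. The median log2 fold change of the 8 was -0.22, and -0.02 over all tested genes. In CM, 2 of 8 were called lower (Dlk1 and Plagl1) and none higher, where 7.14% of all tested genes were called lower and 7.05% higher, with medians of -0.54 and -0.00. In CM with neratinib against control, 4 of 8 were called lower and none higher, or 3 of 7 without Mest, which chose the set. Of all tested genes 20.9% were called lower and 22.2% higher in that comparison, and the medians were -0.49 for the 8, -0.11 without Mest and 0.00 over all genes. Between the CM groups 2 of 8 were below the threshold (Mest and Cdkn1c), beside 9.63% called lower and 10.8% higher over all genes, and since that contrast chose the set nothing is read from it. These comparisons share control or CM libraries, so their values for a gene are not independent of each other. Without the 4 medium T6 libraries, which had the highest epithelial marker sums, the counts were 1 in CM and 4 in CM with neratinib, with Dlk1 at -2.35 and -3.61, and without the libraries labelled PSC4 replicate 1 they were 3 with TGF-beta, 3 in CM and 4 in CM with neratinib. With the replicate block they were 4, 3 and 4. The share of all tested genes called in either direction also moved: it was 40.2% with TGF-beta, 14.2% in CM and 43.1% in CM with neratinib in the fit of all libraries, 49.4%, 18.1% and 40.3% without PSC4 replicate 1, and 50.9%, 23.3% and 52.4% with the block. Without the T6 libraries it was 7.58% in CM and 31.4% in CM with neratinib. Summed fibroblast and stellate markers were 5930 to 7440 CPM in control and 10100 to 20700 CPM with TGF-beta, and their part in the results was not tested. The markers did not move together. Mean Col1a1 was 1750 CPM in control and 7750 CPM with TGF-beta, and Col1a2 854 and 2590 CPM. Pdgfra was 436 CPM in control and 153 CPM with TGF-beta, and S100a4 236 and 111 CPM.

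The lines differed in some members. Grb10 was 260 to 308 CPM in PSC5 controls and 159, 169 and 284 CPM in PSC4 controls, the last being replicate 1. Over all media Grb10 was 0.55 higher in PSC5 on the log2 scale (SE 0.14, adjusted p = 0.038) and Dlk1 was 1.17 higher (SE 0.32, adjusted p = 0.0436). Of 8 members, 2 were called, where 6.97% of all tested genes were called between the lines. Neither call is firm: each was lost in 13 of 23 alternatives, all of them fits that left out 1 library, while without the 3 libraries labelled PSC4 replicate 1 the differences were 0.84 (adjusted p = 1.56e-06) and 1.70 (adjusted p = 0.000195). Peg3 and Plagl1 were lower in PSC5 by values that were not called (-1.94, SE 0.60, adjusted p = 0.058, and -0.35, SE 0.13, adjusted p = 0.0927). Without those 3 libraries both were called, at -2.47 (adjusted p = 0.00092) and -0.39 (adjusted p = 0.0196), but 42.6% of all tested genes were then called between the lines too. Mest did not differ by a called amount (0.16, SE 0.43, adjusted p = 0.834), with a 95% interval of -0.75 to 1.07.

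**Figure D3:**
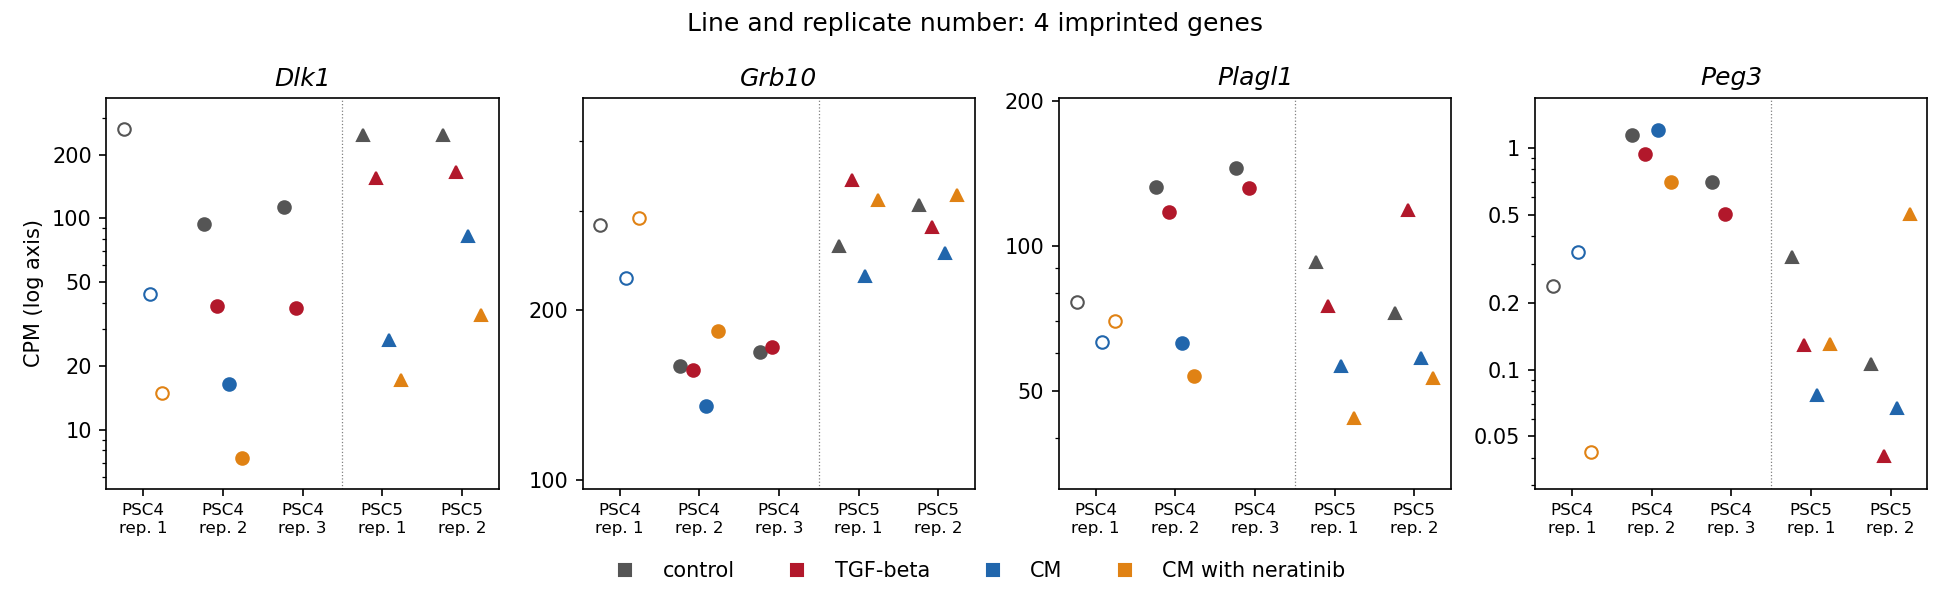
Level of Dlk1, Grb10, Plagl1 and Peg3 (CPM, log axis) by line and replicate number, coloured by medium, with PSC4 replicate 1 as open circles and a dotted line between PSC4 and PSC5. The Grb10 values of PSC4 replicates 2 and 3 lie between 135 and 184 CPM, below all values of PSC4 replicate 1 and PSC5, which start at 228 CPM.

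Whether the response to a medium differed between the lines was tested with an interaction term. For TGF-beta the difference of effects, PSC5 minus PSC4, was 1.64 for Mest (SE 1.09) and 1.41 for Dlk1 (SE 0.85) on the log2 scale, each with an adjusted p of 1 in edgeR. No member was called in any of the 4 interactions, and 0% of all tested genes were called in each. At an unadjusted p under 0.05 there were 601 genes for TGF-beta, 43 for CM, 260 for CM with neratinib and 237 between the CM groups. DESeq2 called 29, 0, 2 and 1 genes. The standard errors of about 1 log2 unit for Mest and Dlk1 show that only large differences between the lines could have been seen. For TGF-beta, PSC4 replicate 1 entered only as a control. Its Dlk1 was 265 CPM beside 93.6 and 113 CPM in the other PSC4 controls, so it enters both the Dlk1 value and its spread.

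Other imprinted genes were taken from a list of 59, of which 53 had an identifier and 36 were tested: neighbours of the members in their clusters and genes of other imprinted loci. With TGF-beta 12 of the 36 fell and 4 rose, with a median log2 fold change of -0.03. In CM 8 fell and 3 rose (median -0.18), and in CM with neratinib 15 fell and 2 rose against control (median -0.21). Between the CM groups, the contrast that chose the members, 7 were called lower and 3 higher (median -0.07). Of all tested genes 9.63% were called lower and 10.8% higher there. Without the medium T6 libraries 9 were called in CM and 15 in CM with neratinib, where 7.58% and 31.4% of all tested genes were called in either direction. With all libraries, 20.5% of tested genes were called lower and 19.7% higher with TGF-beta. These shares were 7.14% and 7.05% in CM, and 20.9% and 22.2% in CM with neratinib. The corresponding shares of the 36 were not tested against these. Calls in CM with and without neratinib share their controls, and the genes were listed with earlier results of these data known.

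**Figure D4:**
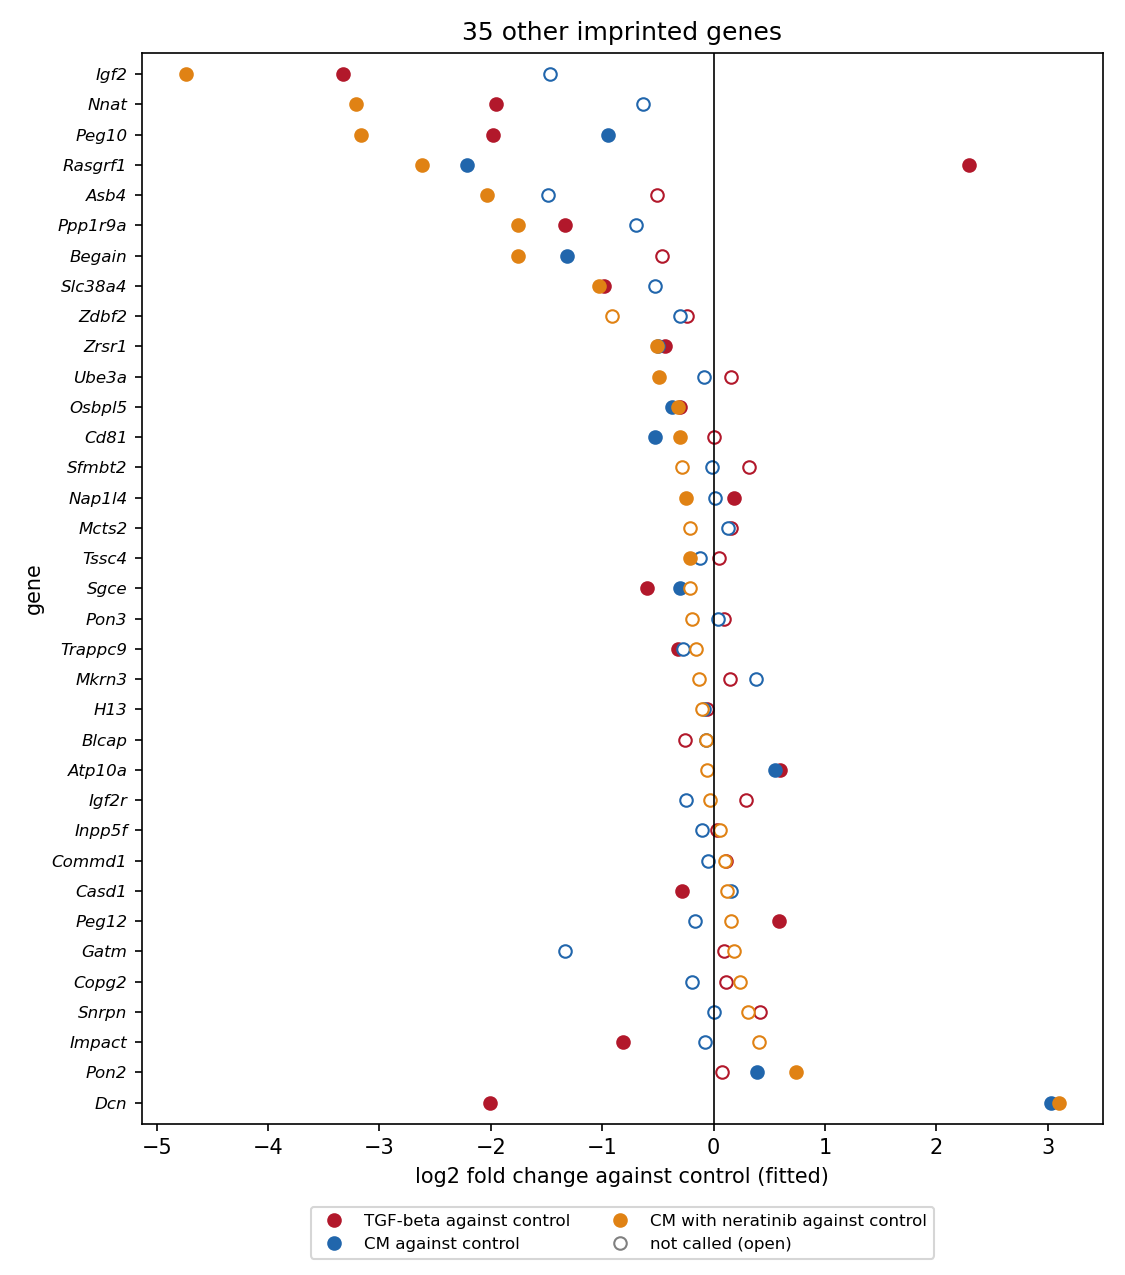
Fitted log2 fold changes against control of 35 other imprinted genes, filled where called and open where not, ordered by the value in CM with neratinib. Rtl1 is left out because it had no counts in CM with neratinib. Igf2 (-4.74), Nnat (-3.21) and Peg10 (-3.17) lie farthest to the left in CM with neratinib, and Dcn (3.10) farthest to the right.

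Peg10, a paternally expressed gene derived from a retrotransposon and needed for the placenta, had the level most like that of Mest by the correlation over all libraries. It was 471, 266 and 245 CPM in PSC4 controls and 373 and 398 CPM in PSC5 controls, and 69.8 to 136 CPM with TGF-beta. In CM it was 251 and 121 CPM in PSC4 and 131 and 229 CPM in PSC5, and in CM with neratinib 23.2 to 60.8 CPM. The libraries with high and low Peg10 in CM were the ones with high and low Mest. The fitted log2 fold change of Peg10 against control was -1.98 with TGF-beta (SE 0.30), -0.95 in CM (SE 0.29) and -3.17 in CM with neratinib (SE 0.32). Peg10 was picked out here for following Mest over these same libraries, so its fold changes are given without a test. Over the 17 libraries the Pearson r of log2 CPM with Mest was 0.96 (Spearman rho 0.92), the highest of 10237 genes ranked, and 0.77 after group means were removed. The next in rank by r were Mertk (0.94), a receptor kinase for the uptake of dying cells, P2rx5 (0.94), an ATP-gated channel, Apcdd1 (0.93), an inhibitor of Wnt signals, and Hmgn3 (0.93), a nucleosome-binding protein. With group means removed their r was 0.81, 0.65, 0.74 and 0.86 in that order, so that Mertk and Hmgn3 were then above Peg10. These correlations describe libraries that share media, lines and scaling, and carry no test. Among the members the r with Mest was 0.84 for Cdkn1c, 0.78 for Dlk1 (rank 287), 0.36 for Plagl1 and between -0.07 and 0.22 for Peg3, Grb10, Ndn and Gnas. With group means removed, r between Dlk1 and Grb10 was 0.91 and r between Peg3 and Grb10 was -0.84, and these pairs follow the split between PSC4 replicates 2 and 3 and the other libraries.

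**Figure D5:**
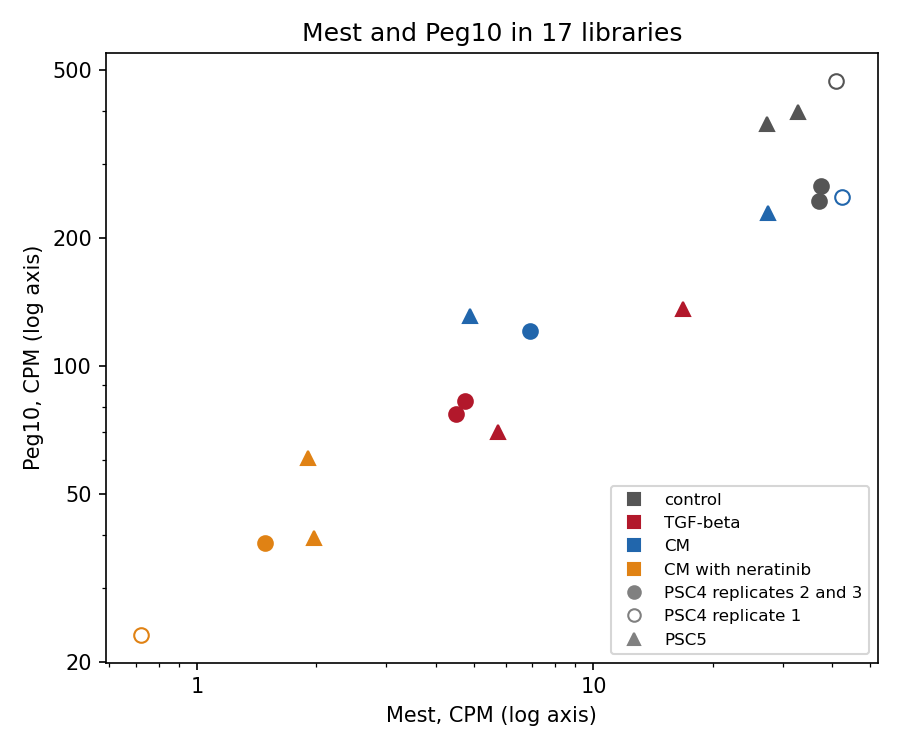
Mest against Peg10 (CPM, both axes log) in 17 libraries, coloured by medium, with circles for PSC4 (open for replicate 1) and triangles for PSC5. The CM libraries split into a pair at 229 and 251 CPM of Peg10 with high Mest and a pair at 121 and 131 CPM with low Mest.

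Decorin (Dcn), a collagen-binding proteoglycan of fibroblasts that is imprinted in mouse placenta, went in opposite directions. It fell by 2.01 with TGF-beta (SE 0.43, adjusted p = 0.0018) and rose by 3.03 in CM (SE 0.41, adjusted p = 0.000407) and by 3.10 in CM with neratinib (SE 0.41, adjusted p = 6.45e-05). Its mean was 181 CPM in control, 50.5 CPM with TGF-beta, 1540 CPM in CM and 1580 CPM in CM with neratinib, and no TGF-beta or CM library overlapped control. Rasgrf1, an exchange factor for Ras, rose by 2.29 with TGF-beta (SE 0.62, adjusted p = 0.00813). Its TGF-beta levels were 14.3 and 26.7 CPM in PSC4 but 1.81 and 2.81 CPM in PSC5, beside 0.603 to 2.85 CPM in control.

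Igf2, the fetal growth factor that shares a cluster with H19 and Cdkn1c, was chosen for mention after its values were seen. It was 3.58, 15.5 and 13.3 CPM in PSC4 controls and 3.73 and 2.98 CPM in PSC5 controls, so that PSC4 replicate 1 stood with PSC5. It was 0.433 to 0.860 CPM with TGF-beta, 1.54 to 3.56 CPM in CM and 0.0851 to 0.622 CPM in CM with neratinib, which rests on 2 to 16 counts a library. Igf2 fell by 3.33 with TGF-beta (adjusted p = 0.000289) and fell by 4.74 in CM with neratinib (adjusted p = 5.30e-05), and was not called in CM (-1.47, adjusted p = 0.0564). Rtl1, a retrotransposon-derived neighbour of Dlk1 and also chosen after its values were seen, had 9 to 19 counts in the 5 controls, 0 to 2 counts in the 4 CM libraries and none in the 4 with neratinib. Against the limit of 3 counts in a library, which covers counting error only, it was at least 3.91-fold lower with neratinib than in control.

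Genes that set or keep imprints were listed apart, and 13 of 14 were tested. With TGF-beta 1 fell and none rose, in CM 2 fell and none rose, and in CM with neratinib 2 fell and 2 rose against control. Over all tested genes 20.5% were called lower and 19.7% higher with TGF-beta, 7.14% and 7.05% in CM, and 20.9% and 22.2% in CM with neratinib. Tet1, which oxidises methylated cytosine, fell by 1.43 in CM (SE 0.29, adjusted p = 0.00609) and by 1.85 in CM with neratinib (SE 0.30, adjusted p = 0.00028), from a mean of 7.53 CPM in control to 2.81 and 2.09 CPM. Dnmt3l, the cofactor of the methyltransferases that set imprints in germ cells, rose by 2.94 in CM with neratinib (SE 0.37, adjusted p = 4.38e-05), with 4.11 to 10.7 CPM there, 1.66 to 2.06 CPM in CM and 0.636 to 1.29 CPM in control. The levels of Zfp57 were 12.6 to 28.7 CPM and those of its partner Trim28 248 to 357 CPM over the 17 libraries.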

How the data were processed

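RNA sequencing of 17 libraries was read from the authors' deposited table of estimated counts per gene. Salmon 1.4.0, DESeq 2 and GRCm38/mm10 are named, per the submitters' processing notes, without their roles, and the annotation and strand setting are not given in the sources used here. Of the deposited expected count values above 0, 74.8% were not whole. They were rounded, and no library total moved by more than 300.9 counts through this. Genes passing filterByExpr (10 counts, 15 in total) were fitted over all 17 libraries with edgeR 4.0.16 in R 4.3.3 (TMM factors, quasi-likelihood test, medium and cell line as terms). P-values were adjusted over all tested genes by Benjamini-Hochberg, with calls under 0.05. A prior count of 2 enters the log2 CPM used for correlations and principal components, and not the fitted fold changes. SE is the standard error of a log2 fold change. The method was tested on simulated data. The biological coefficient of variation was 19.8%.

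Libraries of the same line and number deviated together: all 22 such pairs had a correlation over 0.1 (lowest 0.120, median 0.299). The labels give them the same passage, so the numbers pair the libraries. The main fit, with medium and line as terms, leaves this pairing out, and the replicate block uses it. A difference given as not called can thus be called with the block, as for Grb10 in CM and Cdkn1c with TGF-beta. Alternatives were other scalings, DESeq2 1.42.0, no filter, a replicate block, no line term, only the groups compared, each library left out, and the PSC4 replicate 1 libraries removed or counted with PSC5. The fits without the medium T6 libraries were chosen after seeing the data. Members and lists were chosen with earlier results of these data known. Named besides the members were listed genes called with a log2 fold change of at least 1 and, for imprinted loci, a mean of at least 10 CPM, and the 5 genes most like Mest. Named outside that rule were Igf2 and Rtl1, after their values were seen, and Copg2, for its overlap with Mest. So were Nnat, in a figure, Zfp57 and Trim28, for their levels, and some cell type markers. Positions are from GENCODE on GRCm38, sequences from RefSeq on GRCm38.p6.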

Additional observations from a re-analysis of the deposited data

Results flagged for a closer look

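Each group of 4 or 5 libraries was screened for a single value far from the rest, by its gap to the nearest value over the range of the group. Over 52 sets of values 3 stood out, and chance alone marks about 1 in 20. Mest with TGF-beta was 16.8 CPM in PSC5 replicate 1 and 4.51 to 5.73 CPM in the other 3 libraries (gap over range 0.901). Ndn in CM was 36.4 CPM in PSC5 replicate 2 and 26.9 to 27.3 CPM in the other 3 (0.958). Gnas in CM with neratinib was 741 CPM in PSC5 replicate 2 and 684 to 691 CPM in the other 3 (0.877). No difference between the lines in the response to a medium was called for any of the 8 genes by the interaction test in edgeR.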

How the results depend on the processing

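The count of members called in CM with neratinib against control was 4 in every fit that left out 1 library, without the medium T6 libraries and without PSC4 replicate 1. It was 5, with Gnas added, under upper-quartile factors, library totals, DESeq2 and PSC4 replicate 1 counted with PSC5. In those fits 42.6%, 43.9%, 46.5% and 51.1% of all tested genes were called, in that order. Where the count was 4, that share was 35.1% to 44.3% leaving out 1 library, 31.4% without T6 and 40.3% without PSC4 replicate 1. In CM the count of members called was 1 to 2 over fits leaving out 1 library (1 without CM PSC4 replicate 2). It was 1 without the T6 libraries. The shares of all tested genes called there were 5.68% to 12.9% and 7.58%. Between the CM groups the count was 1 to 3 over fits leaving out 1 library, 4 with the replicate block and 5 with PSC4 replicate 1 counted with PSC5. It was 1 with only the groups compared, 0 without the T6 libraries and 4 with DESeq2. Over all tested genes the shares called in the last 5 of these fits were 32.8%, 29.3%, 4.54%, 1.31% and 25.5%. They were 12.4% to 26.1% over fits leaving out 1 library. Between the lines the count of members called was 0 to 4 over such fits. It was 4 without control PSC4 replicate 1, 1 without CM with neratinib PSC5 replicate 2 and 0 in 12 of these fits. It was 4 with PSC4 replicate 1 removed, 4 with it counted with PSC5 and 4 with DESeq2. There 42.6%, 43.4% and 15.9% of all tested genes were called, against 6.97% in the edgeR fit of all libraries as labelled. Over fits leaving out 1 library that share ran from 0% (without control PSC5 replicate 2) to 21.7% (without CM with neratinib PSC4 replicate 1). It was 17.3% without control PSC4 replicate 1.

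The other imprinted genes called in CM numbered 7 (without CM PSC5 replicate 1) to 11, and between the CM groups 2 with only the groups compared and 0 without the T6 libraries. Of all tested genes 5.68% were called in CM without CM PSC5 replicate 1. Between the CM groups 4.54% were called with only the groups compared and 1.31% without T6. The causes of these changes were not tested. Fewer libraries entered the fits without T6, which were chosen after seeing the data.

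Signs changed only for differences that were not called. Gnas in CM became -0.02 with upper-quartile factors and -0.03 with library totals. Grb10 with TGF-beta became 0.06 with the replicate block, 0.01 without the line term, 0.07 without PSC4 replicate 1 and 0.07 with it counted with PSC5, and lay at -0.20 to 0.07 over fits leaving out 1 library. Ndn with TGF-beta became -0.00 with upper-quartile factors and -0.09 with library totals. Ndn between the CM groups became 0.01 without T6 (-0.09 to 0.09 leaving out 1 library), and against control it lay at -0.16 to 0.02. Peg3 between the CM groups became -0.28 without the line term, -0.01 with PSC4 replicate 1 counted with PSC5 and -0.89 without T6 (-0.55 to 1.11 leaving out 1 library). Peg3 in CM with neratinib against control became 0.27 without PSC4 replicate 1 and 0.04 with DESeq2 (-0.92 to 0.52). Mest between the lines lay at -0.11 to 0.61.

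Among the members the replicate block changed the calls of Cdkn1c with TGF-beta and Grb10 in CM against control, and moved Dlk1 and Grb10 past the threshold between the CM groups. No paired analysis was possible for the lines or for their interaction with medium because a number belongs to 1 line. DESeq2 gave no adjusted p for some genes, which are left out. Depth limits Peg3 (1 to 34 counts a library) and Cdkn1c with neratinib (7 to 15 counts).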
